A study of Rattus norvegicus with 6 samples.

Results

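Cultures grown from rat aorta were compared between the libraries that the labels place in batch 2 and those placed in batch 1, over all genes and with strain as a term. All 6 libraries of the study entered the comparison, 2 from batch 2 and 4 from batch 1. The study used primary cells labelled endothelial, from 3-month-old rats of 2 strains, the spontaneously hypertensive rat (SHR) and the Wistar Kyoto rat (WKY), its normotensive control. Pieces of the proximal aorta, the segment next to the heart, were laid with the luminal side down in wells, and cells were grown in Endothelial Cell Medium with fetal bovine serum, antibiotics and endothelial growth supplement before total RNA was sequenced. No treatment or genetic change was named for any group. The label "batch" is the only stated difference between the 2 sides of the comparison, each of which holds both strains. Of each strain, replicates 1 and 2 belonged to batch 1 and replicate 3 to batch 2. The labels give a number of 3 per strain and do not say whether each library came from its own animal, and each p-value therefore measures only how far these libraries vary, which may be technical.

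A cell that divides copies its DNA with a set of replication proteins, builds a spindle with kinesins and kinetochore proteins, and is driven through these steps by cyclins and the cyclin-dependent kinases (CDKs) they bind. In resting cells these genes are held low together by the pocket proteins of the retinoblastoma family and their partner complexes. Smooth muscle of the vessel wall can take a contractile state, with high smooth muscle actin, myosin and their regulators under the serum response factor SRF and its coactivator myocardin, or a proliferating, matrix-making state often called synthetic, which is common in culture.

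Totals were 18462032 to 19947286 estimated counts per library. Levels are given as CPM, the count scaled to a common library size (TMM). A gene at 0 can have a true level of up to 3 counts, or 0.15 to 0.19 CPM depending on the library, for counting error only. Of 13029 genes tested, edgeR's quasi-likelihood test called 2676 higher in batch 2 (20.5%) and 2901 lower (22.3%) at an adjusted p below 0.05, 42.8% in either direction. Without WKY replicate 3 the number higher was 1731. The first principal component, with 54% of the variance, placed the batch 2 libraries at 92 and 99.02 and the batch 1 libraries between -58.38 and -36.67. The median log2 difference over all genes tested was 0.00, which the TMM scaling largely sets in advance. The lists described here are read against this center, and a shift shared by most genes would not be seen. Over all genes tested, 78.5% had the same sign of the batch difference within both strains. Among the 5577 called genes it was 5575, a count that the fit over both strains largely sets in advance. Across all genes tested, the batch difference within WKY and that within SHR, which share no library, correlated at r = 0.541, a description over genes that are not independent of each other.

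The cell cycle markers were low in both batch 2 libraries. Top2a, the topoisomerase that untangles chromosomes before mitosis, stood at 112 and 87.8 CPM in WKY replicates 1 and 2 and at 128 and 153 CPM in SHR replicates 1 and 2, against 6.06 CPM in WKY replicate 3 and 12.4 CPM in SHR replicate 3. Cdk1, the kinase that starts mitosis, had 105, 119, 140 and 148 CPM in batch 1 (WKY replicates 1 and 2, then SHR replicates 1 and 2) and 9.77 and 14.1 CPM in batch 2 (WKY, then SHR). Ccnb1, its cyclin partner, had 139, 136, 141 and 160 CPM in batch 1 and 6.43 and 9.15 CPM in batch 2. In each of these genes the batches were far apart, and both strains showed the low level. The fitted log2 differences were -3.76 for Top2a (SE 0.24, adjusted p = 0.00105), -3.43 for Cdk1 (SE 0.16, adjusted p = 0.000902) and -4.22 for Ccnb1 (SE 0.19, adjusted p = 0.000902), that is 13.5-fold, 10.8-fold and 18.6-fold lower.

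The contractile markers were high in batch 2. Acta2, which encodes smooth muscle alpha-actin, had 93.6, 105, 145 and 184 CPM in batch 1, 3609 CPM in WKY replicate 3 and 723 CPM in SHR replicate 3. Myh11, the smooth muscle myosin heavy chain and the most restricted marker of the contractile state, had 2.73, 6.42, 2.58 and 3.02 CPM in batch 1, 343 CPM in WKY replicate 3 and 48.7 CPM in SHR replicate 3. The batches did not overlap in either gene, and the 2 batch 2 libraries differed widely from each other, with WKY the higher. The fitted log2 differences were 3.94 for Acta2 (SE 0.74, adjusted p = 0.0118) and 5.31 for Myh11 (SE 0.60, adjusted p = 0.00304). In such bulk samples fewer cells of a type and less RNA per cell cannot be told apart.

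**Figure D1:**
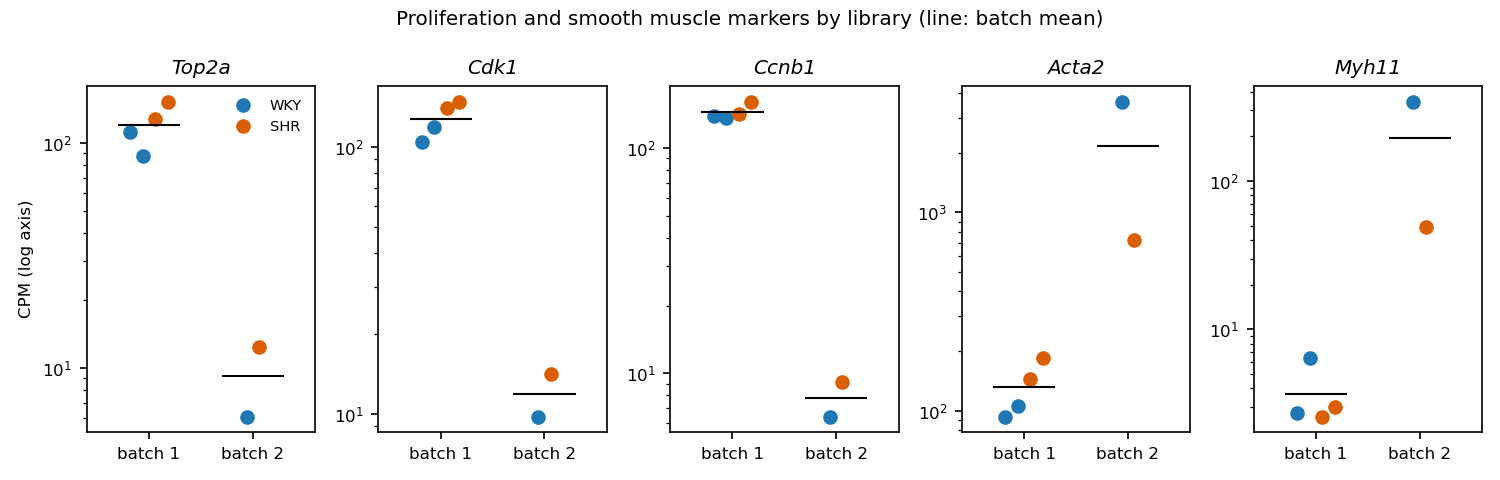
Levels of 3 cell cycle genes and 2 smooth muscle genes in each library, on log axes in CPM, with points colored by strain and a line at each batch's mean (4 libraries in batch 1, 2 in batch 2). Top2a, Cdk1 and Ccnb1 lie between 87.8 and 160 CPM in batch 1 and between 6.06 and 14.1 CPM in batch 2, while Acta2 and Myh11 are higher in both batch 2 libraries than in any batch 1 library.

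The sequences before the start of cell cycle genes are shown because these members moved together. Many late cell cycle genes carry CCAAT boxes and a cell cycle genes homology region (CHR), which are known binding sites of the factor NF-Y and of the MuvB complexes. The 150 bases before the annotated start of 5 genes, from RefSeq on the GRCr8 build, are printed 5′ to 3′ on the gene's strand, and capitals mark the CHR letters TTTGAA and the CCAAT letters on either strand, with no overlap between the motifs.
Top2a: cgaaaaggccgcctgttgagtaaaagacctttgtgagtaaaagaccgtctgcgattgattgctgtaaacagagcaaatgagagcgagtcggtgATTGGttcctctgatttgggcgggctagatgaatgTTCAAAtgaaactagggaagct
Cdk1: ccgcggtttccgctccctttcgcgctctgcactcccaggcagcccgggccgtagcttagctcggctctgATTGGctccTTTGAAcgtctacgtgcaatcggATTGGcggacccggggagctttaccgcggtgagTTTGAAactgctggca
Ccnb1: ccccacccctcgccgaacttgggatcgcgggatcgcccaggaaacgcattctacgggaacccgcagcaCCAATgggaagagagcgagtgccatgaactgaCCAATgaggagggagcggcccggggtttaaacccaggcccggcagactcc
Ccnb2: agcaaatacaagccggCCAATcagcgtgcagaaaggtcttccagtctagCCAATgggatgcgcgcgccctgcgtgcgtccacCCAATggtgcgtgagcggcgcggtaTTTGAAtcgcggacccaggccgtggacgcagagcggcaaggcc
Cdc20: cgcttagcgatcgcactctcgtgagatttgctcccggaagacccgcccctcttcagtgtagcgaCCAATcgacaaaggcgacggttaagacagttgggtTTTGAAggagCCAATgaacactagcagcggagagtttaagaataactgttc
These windows lie at chr10:84473094-84473243 (minus strand) for Top2a, chr20:19265143-19265292 (plus strand) for Cdk1, chr2:33655226-33655375 (minus strand) for Ccnb1, chr8:79981659-79981808 (minus strand) for Ccnb2 and chr5:137255800-137255949 (minus strand) for Cdc20. Cdk1 has 2 CHR matches, the nearer ending 11 bases before the start, and Ccnb1 has 2 CCAAT boxes and no CHR match in the window. Top2a, Cdk1 and Ccnb1 are the markers described above. Ccnb2 and Cdc20, which both have a CHR match, were added by choice, so the 5 genes do not stand for the lists as a whole.

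Promoters of 250 bases before the start were available for 105 of the 129 cell cycle members measured. A CCAAT box was found in 71 of them (67.6%) and a CHR match in 34 (32.4%), against 34.3% and 16% of all 27457 promoters and 35.9% and 10.1% of those of the genes tested. Both motifs were found in 29 members (27.6%), against 5.76% of all promoters. By list, a CHR match was found in 3 of 11 promoters of cell cycle entry genes (27.3%), 2 of 28 of DNA replication (7.14%) and 1 of 6 of nucleotide synthesis (16.7%). It was found in 2 of 12 of mitotic kinases and cyclins (16.7%), 14 of 34 of spindle, kinetochore and chromosome genes (41.2%) and 12 of 14 of mitotic exit and cytokinesis genes (85.7%). A CCAAT box was found in 72.7%, 71.4%, 50%, 50%, 70.6% and 71.4% of these lists in the same order. In the order listed, the share with a CHR match rose or stayed level from DNA replication (7.14%) to mitotic exit and cytokinesis (85.7%). The entry list, at 27.3%, did not follow this order, which comes from the arrangement of the lists and is not a measure of timing. The shares of nucleotide synthesis and of mitotic kinases and cyclins rest on only 6 and 12 promoters. Outside these lists, 358 genes tested had both motifs, and 31.6% of them were lower in batch 2, with a median log2 difference of -0.26. Among all 10136 genes tested with a promoter outside the lists, the 358 included, 22.0% were lower, with a median of 0.01. Cell cycle genes that the lists leave out may be among the 358, and their part was not tested. A match of letters is a description of the sequence, not a shown binding site.

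Across 6 lists that follow the cell cycle from entry to exit, 121 of 129 measured genes were lower in batch 2 and 1 was higher, against 22.3% and 20.5% of all genes tested. At least 2-fold lower were 118 members, against 13.6% of all genes. The libraries of the batches did not overlap, with batch 2 lower, in 123 members, against 30.1% of all genes. The median log2 difference of the members was -2.96, with -3.02 within WKY and -2.92 within SHR. Leaving out any 1 library left between 119 and 121 members lower. The number was 110 among genes whose counts were whole in all libraries.

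**Figure D2:**
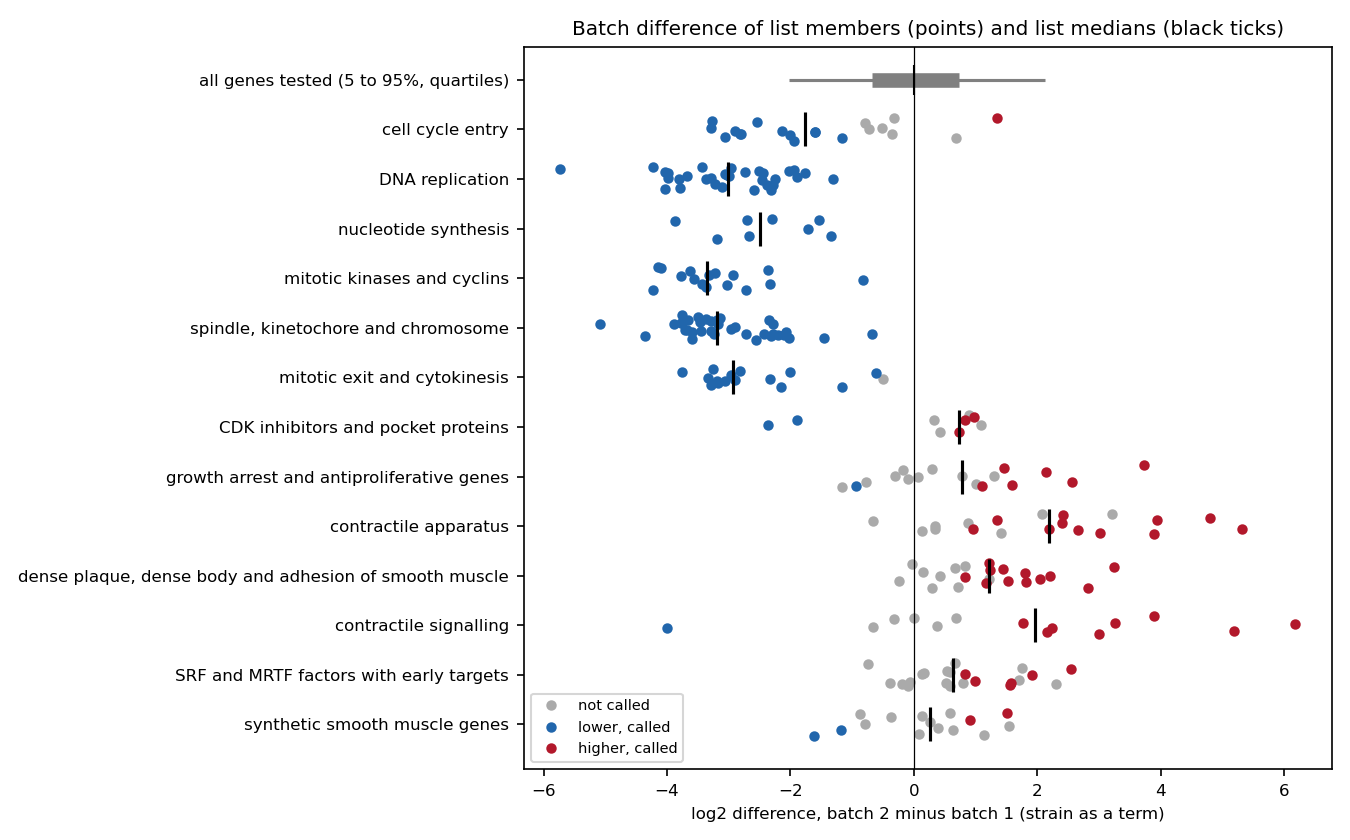
Fitted log2 differences, batch 2 minus batch 1, of each tested member of 13 gene lists, with black ticks at list medians, colors for calls at an adjusted p below 0.05, and, at the top, the quartiles and the range from 5% to 95% of all genes tested. Of the 129 cell cycle genes 127 lie to the left of 0, the 6 lists having medians from -3.35 to -1.77, and the contractile apparatus list has its median at 2.18, with 18 of 19 members to the right of 0.

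Entry into the cycle was the stage with the most varied members. Of 20 genes 13 were lower, 1 was higher and 6 were not called, with a median of -1.77. Ccne1, the cyclin that opens the S phase, had 24.2 to 34.3 CPM in batch 1 and 4.33 and 3.70 CPM in batch 2 (log2 difference -2.90, SE 0.22). Ccna2, which acts in S phase and in mitosis, had 135, 139, 161 and 199 CPM in batch 1 and 13.4 and 19.1 CPM in batch 2. The transcription factor Foxm1, a driver of mitotic genes, had 55.4 to 83.4 CPM in batch 1 and 14.8 and 14.7 CPM in batch 2 (log2 difference -2.13, SE 0.19). All 3 were low in both batch 2 libraries.

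The D-type cyclins and their kinases, which sense growth factors before the cycle starts, were apart from the other members. Ccnd2 was the member that was higher, with 20.3, 40.7, 14.96 and 18.8 CPM in batch 1 and 79.6 and 41.6 CPM in batch 2 (log2 difference 1.35, SE 0.28, adjusted p = 0.0144). Ccnd1 stood at 1608, 1862, 911 and 1298 CPM in batch 1, at 1856 CPM in WKY replicate 3 and at 326 CPM in SHR replicate 3. It was not called (log2 difference -0.73, SE 0.48), was the 1 cell cycle member whose batch difference differed between the strains by DESeq2, and had an unadjusted p of 0.00713 for that difference in edgeR. Cdk4 had 207 to 256 CPM in batch 1 and 194 and 167 CPM in batch 2, without a call. Ccnd3, Cdk6, E2f2 and E2f3 were the others not called in this list. Mki67, the gene of the proliferation antigen Ki-67, had 121, 96.6, 129 and 139 CPM in batch 1 and 30.7 and 29.4 CPM in batch 2, a smaller difference than the median of the lists (log2 difference -2.003, SE 0.18).

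All 32 DNA replication genes were lower in batch 2, each by at least 2-fold, with a median of -3.01. Pcna, the clamp that holds DNA polymerase on its template, had 128, 111, 119 and 153 CPM in batch 1 and 12.4 and 13.7 CPM in batch 2 (log2 difference -3.29, SE 0.19). Fen1, the nuclease that trims Okazaki fragments, had 34.5 to 49.6 CPM and then 2.72 and 3.08 CPM. Gins1, a subunit of the replicative helicase, had 14 to 19.6 CPM and then 0.93 and 0.98 CPM (log2 difference -4.03, SE 0.25). Rfc4, of the clamp loader, had 36.2 to 51.0 CPM and then 5.997 and 8.02 CPM. The 2 batch 2 libraries were close to each other in these 4 genes, and the lowest batch 1 library was several times above both. Naming the members with the smallest adjusted p favors such genes. Other members were further apart, such as Cdt1 (1.61 CPM in WKY replicate 3, 7.20 CPM in SHR replicate 3) and Mcm2 (49.6 and 26.8 CPM). The smallest difference was that of the DNA ligase gene Lig1 (log2 difference -1.31). The largest was that of Orc1, a subunit of the origin recognition complex (-5.73, SE 0.64), whose counts were not whole, so that its level is uncertain.

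All 8 genes of deoxynucleotide supply were lower, with a median of -2.49. Rrm2, the regulated subunit of ribonucleotide reductase, had 627, 499.6, 526 and 709 CPM in batch 1 and 38.6 and 41.9 CPM in batch 2 (log2 difference -3.88, SE 0.25). Rrm1, its partner subunit, had 211 to 275 CPM and then 32.5 and 44.4 CPM. The thymidine kinase gene Tk1 had 256 to 365 CPM and then 40.1 and 24.5 CPM. The dUTPase gene Dut had 64.3 to 92.2 CPM and then 10.0 and 13.0 CPM. The batches did not overlap in any of the 8 genes.

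The mitotic kinases and cyclins, 16 of 16 lower, had the lowest median of the 6 lists, -3.35. Besides Cdk1 and Ccnb1, the spindle checkpoint kinase gene Bub1b had 44.5 to 58.8 CPM in batch 1 and 4.33 and 5.86 CPM in batch 2 (log2 difference -3.32, SE 0.16). Mastl, the kinase that keeps phosphatases off during mitosis, had 35.8 to 46.7 CPM and then 3.83 and 3.91 CPM, with counts that were not all whole. Wee1, which restrains Cdk1, had 30.7, 44.3, 44.3 and 47.4 CPM in batch 1 and 20.7 and 26.3 CPM in batch 2 and was the member with the smallest difference (-0.83, SE 0.19).

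Spindle, kinetochore and chromosome genes were lower in 37 of 37 cases, with a median of -3.19. Kif11, the motor that pushes spindle poles apart, had 43.1 to 62.6 CPM in batch 1 and 3.83 and 5.71 CPM in batch 2. Kif22, a chromosome-bound kinesin, had 86.8 to 121 CPM and then 6.86 and 10.1 CPM. The outer kinetochore gene Nuf2 had 45.7 to 59.1 CPM and then 3.77 and 5.09 CPM, and Cenpf, a late kinetochore protein, had 59.7 to 81.4 CPM and then 6.68 and 7.81 CPM. In each of these genes SHR replicate 3 was the higher of the batch 2 libraries. Smc4, a condensin subunit, had the smallest difference of the list (-0.68, SE 0.15), and Cenpw, of the inner kinetochore, the largest (-5.08, SE 0.37).

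Of the genes of mitotic exit and cytokinesis 15 of 16 were lower, with a median of -2.93. Prc1, which bundles the microtubules of the midzone, had 184 to 266 CPM in batch 1 and 21.7 and 31.3 CPM in batch 2 (log2 difference -3.06, SE 0.15). Kif23 and Racgap1, which together form the centralspindlin complex, had 77.3 to 99.5 CPM and 91.0 to 131 CPM in batch 1, and at most 12.1 and 14.3 CPM in batch 2. Cdc20, the activator of the anaphase-promoting complex whose promoter is shown above, had 105, 112, 154 and 172 CPM in batch 1 and 17.7 and 19.7 CPM in batch 2 (log2 difference -2.82, SE 0.18). Fzr1, the activator that keeps the same complex active in resting cells, was the member not called (36.3 to 48.9 CPM in batch 1, 35.9 and 23.7 CPM in batch 2; log2 difference -0.50, SE 0.23).

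Summed over the 129 cell cycle genes, the level was 9687, 9706, 9672 and 11882 CPM in batch 1 (WKY replicates 1 and 2, SHR replicates 1 and 2), 3917 CPM in WKY replicate 3 and 2300 CPM in SHR replicate 3. Of the sum in WKY replicate 3, 1856 CPM were Ccnd1 alone. The sums of the 5 lists after entry were lower in WKY replicate 3 for 4 of them, with 252 CPM against 285 CPM in SHR replicate 3 for DNA replication, and with 106 against 164 CPM for mitotic kinases and cyclins. Nucleotide synthesis was the list with the higher sum in WKY replicate 3 (189 against 164 CPM).

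Inhibitors of the cycle were mixed. Of 9 measured CDK inhibitors and pocket proteins 3 were higher and 2 lower in batch 2 (33.3% and 22.2%). These shares were near the 20.5% and 22.3% of all genes tested. Rb1, the retinoblastoma protein gene, had 13.7 to 16.8 CPM in batch 1 and 29.2 and 23.9 CPM in batch 2 (log2 difference 0.84, SE 0.17; not called without WKY replicate 3, adjusted p = 0.0891). Rbl2, the pocket protein typical of resting cells, had 40.7 to 59.5 CPM and then 82.2 and 108 CPM (log2 difference 0.97, SE 0.19; not called without SHR replicate 3, adjusted p = 0.0718). Rbl1, the pocket protein typical of cycling cells, had 16.1 to 27.5 CPM and then 3.83 and 4.32 CPM (log2 difference -2.37, SE 0.29). Rbl1 and Rbl2 thus went in opposite directions. Cdkn2c, an inhibitor of the CDK4 and CDK6 kinases, had 27.0, 35.4, 62.7 and 54.1 CPM in batch 1 and 6.68 and 19.4 CPM in batch 2. Cdkn1a, the p53-responsive inhibitor, was higher with an adjusted p of 0.0489, close to the threshold (163 to 233 CPM in batch 1, 393 and 265 CPM in batch 2). Cdkn1b, Cdkn1c, Cdkn2a and Cdkn2b were not called.

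Of 17 tested genes linked to growth arrest, 6 were higher (35.3%) and 1 was lower (5.88%) in batch 2, against 20.5% and 22.3% of all genes tested. Their median was 0.79, which was 0.34 without SHR replicate 3. Klf9, a Krüppel-like factor that responds to glucocorticoids, had 83.4, 83.1, 93.9 and 80.8 CPM in batch 1 and 364 and 671 CPM in batch 2 (log2 difference 2.55, SE 0.22, adjusted p = 0.00149). The antiproliferative gene Tob1 had 30.4 to 33.0 CPM and then 80.7 and 58.4 CPM (log2 difference 1.11, SE 0.15). Pdk4, which turns pyruvate away from oxidation, had 2.98 to 14.6 CPM and then 43.0 and 190 CPM (not called without SHR replicate 3, adjusted p = 0.0622). The libraries of batch 1 were nearly level in Klf9 and Tob1, and both batch 2 libraries lay above them, which naming by the smallest adjusted p favors. Gas1, Sesn3 and Ndrg1 were the other higher members and Cryab, a small heat shock protein gene, the lower one.

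The contractile apparatus, the list of actin, myosin and their regulators, was higher in part and unevenly between the strains. Of its 20 genes 19 passed the filter on low counts, and of these 11 were higher and 8 were not called, against 20.5% of all genes tested that were higher. The same 11 had batch 2 levels above all batch 1 levels, against 26.7% of all genes. By edgeR 0 members were lower, 0 also at an unadjusted p below 0.05 and 0 by DESeq2, which called 13 higher. The median log2 difference was 2.18, with 2.57 within WKY and 1.45 within SHR, and 1.58 without WKY replicate 3. Over the 20 genes, WKY replicate 3 was above both batch 1 WKY libraries in 18 and SHR replicate 3 above both batch 1 SHR libraries in 13.

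Several members rose in both strains. Cnn1, the actin-binding protein calponin, had 0.35, 0.48, 0.37 and 0.46 CPM in batch 1, 7.60 CPM in WKY replicate 3 and 17.1 CPM in SHR replicate 3 (log2 difference 4.79, SE 0.38, adjusted p = 0.00126). Synpo2, an actin-bundling protein of the Z-disc and dense body, had 34.8, 60.8, 53.5 and 37.5 CPM in batch 1 and 429.98 and 332 CPM in batch 2 (log2 difference 3.02, SE 0.27). Myocd, the myocardin gene, had 6.98, 10.0, 4.48 and 2.92 CPM in batch 1 and 80.8 and 14.2 CPM in batch 2 (log2 difference 2.66, SE 0.36). In all 3 the batches did not overlap. Smtn, the smoothelin gene, was also higher (46.6 to 66.9 CPM, then 358 and 189 CPM), but its counts were not all whole and its level is uncertain. Mylk, Lmod1, Csrp1, Ppp1r12b and Actg2 were the other higher members.

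Other members differed between the batch 2 libraries, and of these Tagln and Myl9 were high in WKY replicate 3 alone. Tagln, the transgelin gene and a common smooth muscle marker, had 518, 499, 580 and 547 CPM in batch 1, 3026 CPM in WKY replicate 3 and 475 CPM in SHR replicate 3. Myl9, a regulatory light chain, had 24.0, 36.4, 67.9 and 36.5 CPM in batch 1, 316 CPM in WKY replicate 3 and 56.5 CPM in SHR replicate 3. Myl6, an essential light chain found in most cell types, had 709 to 852 CPM in batch 1, 904 CPM in WKY replicate 3 and 240.1 CPM in SHR replicate 3. The SHR batch 2 library thus lay at or below its own batch 1 level in Tagln and Myl6 and within it in Myl9, and none of the 3 was called. Des, the desmin gene, was low in WKY replicate 3 and high in SHR replicate 3: it had 21.8 and 19.9 CPM in batch 1 WKY, 3.09 CPM in WKY replicate 3, 2.48 and 1.69 CPM in batch 1 SHR and 86.8 CPM in SHR replicate 3. SHR replicate 3 was below all 4 batch 1 libraries in 4 of the 20 genes.

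**Figure D3:**
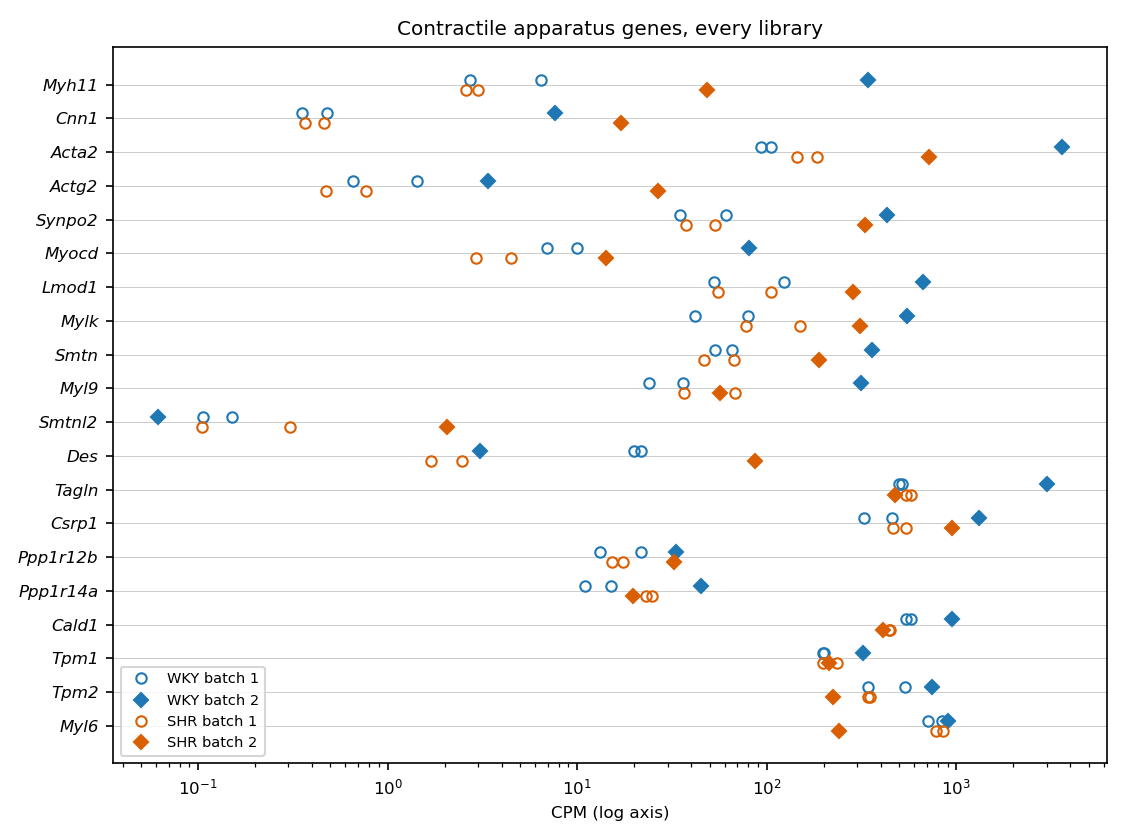
Levels of the 20 contractile apparatus genes in every library on a log axis in CPM, with open circles for batch 1, filled diamonds for batch 2, and colors for strain. Genes from Myh11 to Smtn at the top are higher in both batch 2 libraries, while in Tagln the WKY batch 2 library stands alone at 3026 CPM and in Myl6 the SHR batch 2 library is the lowest at 240.1 CPM.

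Whether the batch difference itself differed between the strains was tested with an interaction term. By edgeR 0 of 13029 genes passed after adjustment (0%), 1647 genes had an unadjusted p below 0.05 (12.6%), and 452 were called by DESeq2 (3.47%). The edgeR number changed when WKY replicate 1 or WKY replicate 2 was left out, and did not change without SHR replicate 1 or SHR replicate 2. Such a fit leaves 1 batch 1 library in the strain concerned, so its count is not read here. Of the 19 contractile apparatus genes 11 had an unadjusted p below 0.05, of which 9 had the more positive batch difference in WKY. The 7 that DESeq2 called were Acta2, Actg2, Tagln, Myl9, Myl6, Des and Ppp1r14a. For Acta2 the batch difference was 5.18 on the log2 scale within WKY and 2.14 within SHR (edgeR adjusted p = 0.149 for the difference), and for Tagln it was 2.57 and -0.25 (adjusted p = 0.149). Of the 129 cell cycle genes 18 had an unadjusted p below 0.05, and DESeq2 called Ccnd1. With 1 batch 2 library per strain, strain and library cannot be told apart in this difference.

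**Figure D4:**
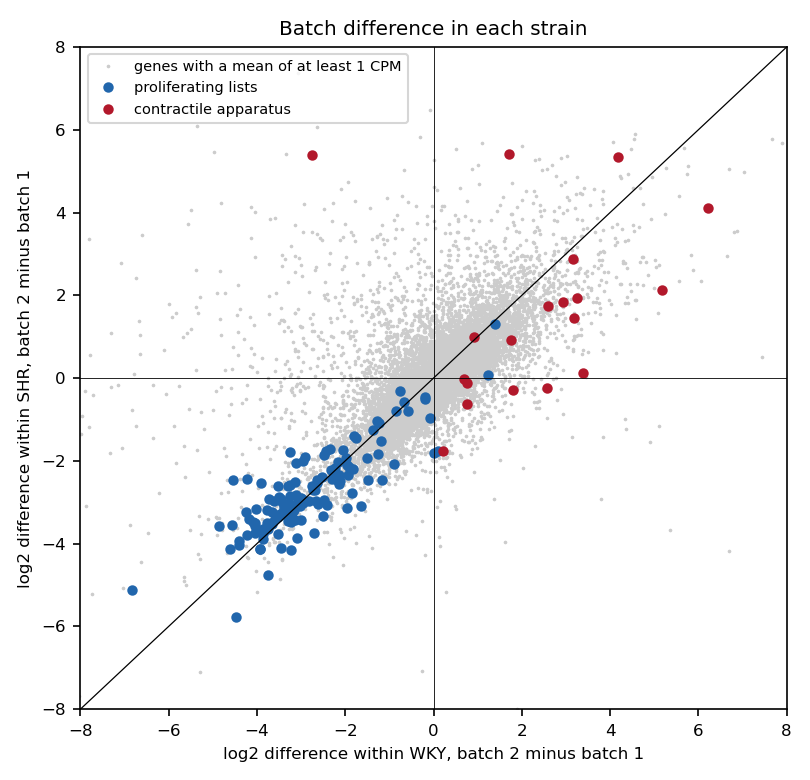
Batch difference within WKY (x axis) against that within SHR (y axis), in log2, for genes at 1 CPM or more on average (103 of 12260 lie outside the axes), with the line of equal difference. Cell cycle genes gather along the line in the lower left, and contractile apparatus genes lie on both sides of it, with more of them below, where the difference is larger in WKY.

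The sequence before Acta2 is shown because SRF sites of this gene are well described. SRF binds CArG boxes, in which A and T letters stand between paired C and paired G letters. No promoter of the 15 contractile apparatus genes with an entry held a strict CArG box, against 1.5% of all promoters. A box with 1 other base in its center, searched after the strict form gave no match, was found in 6.73% of all promoters and in Acta2 alone of the 15, at 2 places. The 150 bases before its start (GRCr8, chr1:241172504-241172653, minus strand, RefSeq) have these matches in capitals, at 134 to 125 and 84 to 75 bases before the start.
Acta2: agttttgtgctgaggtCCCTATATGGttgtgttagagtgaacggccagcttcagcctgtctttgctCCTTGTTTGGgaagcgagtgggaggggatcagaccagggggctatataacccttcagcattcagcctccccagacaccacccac

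Genes of the dense plaques and dense bodies, where actin filaments are anchored to the membrane and in the cell, were higher in 12 of 21 tested members. This was 57.1%, against 20.5% of all genes tested. The other 9 were not called, and the median was 1.21 (0.69 without WKY replicate 3). Zyx, the focal adhesion protein zyxin, had 203, 204, 165 and 178 CPM in batch 1 and 895 and 475 CPM in batch 2 (log2 difference 1.82, SE 0.19). Cav1, the coat protein of caveolae, had 348 to 455 CPM and then 1264 and 981 CPM (log2 difference 1.45, SE 0.20). Mcam, an adhesion molecule of vascular mural cells, had 0.79 to 4.09 CPM and then 47.5 and 8.59 CPM (log2 difference 3.24, SE 0.40). The 3 genes, named for their small adjusted p, were above the batch 1 range in both batch 2 libraries. This held for 8 of the 21 members, against 26.7% of all genes tested. Nexn, the nexilin gene, was called with all libraries (5.83 to 14.2 CPM, then 61.1 and 13.4 CPM) and not without WKY replicate 3 (adjusted p = 0.0847). Of the 21 members DESeq2 called 6 with a batch difference that differed between the strains, among them Vcl and Flna. Flna, the filamin A gene, had 938 to 1394 CPM in batch 1, 3291 CPM in WKY replicate 3 and 455 CPM in SHR replicate 3.

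Of 14 tested genes of contractile signalling 8 were higher (57.1%) and 1 was lower (7.14%), against 20.5% and 22.3% of all genes tested. Their median was 1.96. The subunits of soluble guanylate cyclase, the receptor of nitric oxide, rose together: Gucy1a1 had 0.15, 0.11, 0.63 and 0.72 CPM in batch 1 and 36.4 and 15.2 CPM in batch 2 (log2 difference 6.18, SE 0.80), and Gucy1b1 had 2.41 to 6.72 CPM and then 37.7 and 7.76 CPM (2.23, SE 0.32). In WKY replicates 1 and 2 Gucy1a1 had 3 and 2 counts. Prkg1, the kinase activated by the cyclic GMP that this enzyme makes, had 2.48 to 4.03 CPM and then 15.6 and 10.7 CPM, with counts that were not all whole. Itpr1, the calcium release channel gated by inositol trisphosphate, had 12.3 to 24.7 CPM and then 62.3 and 52.5 CPM (log2 difference 1.77, SE 0.29). Pln, the regulator of the calcium pump, had 0.63 to 1.47 CPM in batch 1, 112 CPM in WKY replicate 3 and 6.63 CPM in SHR replicate 3. These genes span the path from nitric oxide to calcium handling, and the batches did not overlap in any of them, but they were named with their values known. Batch 2 was above the batch 1 range in 8 of the 14 members, against 26.7% of all genes tested. Ednrb, the endothelin receptor B gene, was the lower member, with 26.5, 130.3, 102 and 118 CPM in batch 1 and 3.59 and 8.95 CPM in batch 2 (log2 difference -3.99, SE 0.79, adjusted p = 0.0138).

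SRF, its coactivators and early target genes were higher in 6 of 22 cases (27.3%, against 20.5% of all genes tested), and the other 16 were not called, with a median of 0.63. The share of higher members is thus near that of all genes. Srf had 40.9 to 68.9 CPM in batch 1 and 112 and 100.2 CPM in batch 2 (log2 difference 0.99, SE 0.17). Mrtfa, the coactivator that enters the nucleus when actin is polymerized, had 49.1 to 68.1 CPM and then 235 and 120.3 CPM (1.57, SE 0.25). Egr1, an immediate early gene, had 16.5 to 70.0 CPM and then 135 and 268 CPM (2.55, SE 0.25). Both batch 2 libraries were above the batch 1 range in these 3 genes, named for their small adjusted p. This held for 10 of the 22 members, against 26.7% of all genes tested. Elk3, Fhl1 and Junb were the other higher members, and Elk3 was not called without WKY replicate 3 (adjusted p = 0.104). Klf4, Yap1 and Ctgf were among the 16 not called.

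Of 15 genes used as signs of the synthetic state 2 were higher and 2 lower (13.3% each, below the 20.5% and 22.3% of all genes tested), with a median of 0.26. Vim, the vimentin gene, had 3073 to 4265 CPM in batch 1 and 8593 and 12126 CPM in batch 2 (log2 difference 1.51, SE 0.27). Lgals3, the galectin-3 gene, had 758 to 1501 CPM and then 294 and 380.5 CPM (log2 difference -1.62, SE 0.33; not called without WKY replicate 3, adjusted p = 0.0513). Spp1, the osteopontin gene, overlapped between the batches (2403 to 7704 CPM, then 3782 and 1685 CPM). Both batch 2 libraries were above the batch 1 range in 3 of the 15 members and below it in 2, against 26.7% and 30.1% of all genes tested. Myh10 was higher and Cd44 lower with all 6 libraries, and each lost its call when any of 4 libraries was left out, both WKY replicate 1 and 3 and SHR replicate 2 among them (adjusted p = 0.11, 0.355 and 0.109 for Myh10, 0.0589, 0.174 and 0.103 for Cd44).

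The labelled cell type was checked against its markers in every library. Several endothelial genes were near 0 in both batches. Cdh5, Tie1, Sox18, Erg and Nos3 stood at 0 to 0.36 CPM, and Vwf and Kdr at 0 to 0.93 CPM. Pecam1 stood at 0.11 to 2.16 CPM, with its highest level in SHR replicate 3. Others reached higher levels in some libraries. Tek had 0.43 to 1.86 CPM in the WKY libraries and 4.74 to 9.42 CPM in the SHR libraries. Ptprb had 0.26 to 9.07 CPM, Icam2 0.06 to 4.63 CPM and Sox17 0 to 3.02 CPM. Cldn5 was not matched. Of 11 tested endothelial genes 10 were not called and 1 was higher in batch 2 (9.09%, against 20.5% of all genes tested). This was Sox7 (0.69 to 1.26 CPM, then 10.1 and 3.70 CPM), which was not called without WKY replicate 3 (adjusted p = 0.0571). The summed level of the 17 endothelial genes measured was 58.7 to 107 CPM in batch 1 and 36.2 and 57.5 CPM in batch 2, most of it from Flt1 and Egfl7. The contractile and cell cycle genes described here were thus measured in cultures with little RNA of endothelial marker genes in either batch.

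Some markers of other cell types of the vessel wall were high in single batch 2 libraries or in both, and others were not. The part of these cell types in the results was not tested. Of 19 fibroblast genes 14 were not called and 5 were higher, namely Tcf21, Pi16, Dpp4, Lum and Cd34, a share (26.3%) near the 20.5% of all genes tested. The summed level was 7388 to 19744 CPM in batch 1, 18006 CPM in WKY replicate 3 and 26595 CPM in SHR replicate 3. Of the 19 genes 16 had a positive fitted difference and 3 a negative one. In WKY replicate 3 Dcn (8.35 CPM), Scara5 (78.9 CPM) and Mfap5 (62.8 CPM), all not called, were below both batch 1 WKY libraries. In SHR replicate 3 Dcn (1292 CPM) and Scara5 (926 CPM) were above both batch 1 SHR libraries and Mfap5 (142 CPM) was below both. Dpp4, a surface peptidase of adventitial fibroblasts, had 1.57 to 24.0 CPM in batch 1 and 99.3 and 427 CPM in batch 2, and was not called without either batch 2 library (adjusted p = 0.0578 without WKY replicate 3 and 0.071 without SHR replicate 3). The fibroblast calls of Tcf21, Lum and Pi16 were lost without SHR replicate 3 (adjusted p = 0.355, 0.0941 and 0.0602). Of 8 tested pericyte genes 2 were higher, Cox4i2 (0.51 to 2.10 CPM, then 17.5 and 40.5 CPM; log2 difference 4.56, SE 0.32) and Notch3, the receptor of mural cells (0.66 to 1.48 CPM, then 36.5 and 2.88 CPM; not called without WKY replicate 2, WKY replicate 3 or SHR replicate 2, adjusted p = 0.0923, 0.14 and 0.0516). The other 6 tested pericyte genes were not called, and the share higher (25%) was near the 20.5% of all genes tested. Rgs5, a defining pericyte gene, was at 0 to 0.12 CPM, while Pdgfrb of the same list stood at 575 to 2568 CPM. The summed level of the 10 pericyte genes measured was 981 to 1354 CPM in batch 1, 3386 CPM in WKY replicate 3 and 1476 CPM in SHR replicate 3.

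The 2 batch 2 libraries differed from each other in these other markers. Of 9 tested mesothelial and epithelial genes edgeR called 0, and 1 had an unadjusted p below 0.05, but SHR replicate 3 was high in several and DESeq2 called Msln and Wt1 with a batch difference that differed between the strains. Lrrn4 had 0 to 5.73 CPM in batch 1, 0.37 CPM in WKY replicate 3 and 102 CPM in SHR replicate 3, and Upk3b had 0.05 to 23.5, 5.19 and 164 CPM. The summed level of the 12 genes was 317 to 659 CPM in batch 1, 85.4 CPM in WKY replicate 3 and 1355 CPM in SHR replicate 3. Of 11 leukocyte genes Ptprc, Adgre1 and Aif1 were at 0 in all libraries, while Cd14 had 14.8 to 38.9 CPM and Cd68 3.46 to 27.7 CPM, both without a call and both highest in SHR replicate 3. The sum of this list was 29.0 to 55.8 CPM in batch 1 and 33.1 and 67.3 CPM in batch 2. Of the heart muscle genes Actc1 and Nppa were at 0. Pln is on that list too and was 112 of 113 CPM of its sum in WKY replicate 3 and 6.63 of 8.02 CPM in SHR replicate 3, while in batch 1 the whole list summed to 1.43 to 2.79 CPM.

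Chondrocyte, matrix and growth factor genes added smaller groups. Sox9, a transcription factor of cartilage that also acts in vessel walls, had 3.37 to 9.76 CPM in batch 1 and 103 and 35.7 CPM in batch 2 (log2 difference 3.43, SE 0.33). It was 1 of 2 called among 4 tested chondrocyte genes, where 42.8% of all genes tested were called. The other, the cartilage matrix gene Matn3, was lower (0.20 to 0.74 CPM, then 0.06 and 0.05 CPM; log2 difference -2.97, adjusted p = 0.0409) and lost its call without WKY replicate 2, WKY replicate 3 or SHR replicate 3 (adjusted p = 0.0896, 0.105 and 0.237). Of the other cartilage matrix genes Cnmd was at 0, Col2a1 reached 0.25 CPM, Acan 1.61 CPM, Hapln1 2.02 CPM and Comp 2.35 CPM. Of 22 matrix and TGF-beta genes 6 were higher (27.3%, near the 20.5% of all genes tested) and 1 (Tnc) was lower (4.55%, against 22.3%). The ligand genes of TGF-beta were all higher: Tgfb1 had 46.1 to 114 CPM in batch 1 and 242 and 117 CPM in batch 2 (log2 difference 1.26, SE 0.14), Tgfb3 had 40.6 to 108 CPM and then 199.9 and 219 CPM (1.66, SE 0.32; not called without WKY replicate 3, adjusted p = 0.0886), and Tgfb2 had a log2 difference of 1.41 (SE 0.31). Each was higher in the batch 2 library of both strains than in the batch 1 libraries of the same strain. Eln, the elastin gene, had 585 to 1011 CPM in batch 1, 9910 CPM in WKY replicate 3 and 353 CPM in SHR replicate 3 and was not called. Of 21 growth factor and receptor genes 3 were higher (14.3%) and 1 lower (4.76%), both below the shares of all genes. Pdgfd had 4.30 to 13.4 CPM in batch 1 and 13.5 and 44.9 CPM in batch 2, and Ereg, an epidermal growth factor ligand, 7.95 to 24.3 CPM and then 2.97 and 1.54 CPM. The call of Pdgfd was lost without SHR replicate 3 (adjusted p = 0.0729), and that of Ereg without either batch 2 library (0.0588 and 0.0931).

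Of 10 tested heat shock and chaperone genes 6 were lower (60%, against 22.3% of all genes tested) and 1 (Bag3) was higher. Hspd1 and Hspe1, which together form the chaperonin of mitochondria, had 462 to 570 CPM and 76.6 to 85.1 CPM in batch 1 and at most 101 and 26.2 CPM in batch 2 (log2 differences -2.37, SE 0.20, and -1.88, SE 0.17). The stress-induced gene Hspa1a was at 1.13 to 3.15 CPM throughout. In glycolysis 5 of 22 genes were higher (22.7%) and 3 lower (13.6%), against 20.5% and 22.3% of all genes, so that neither share stood out, with Gpi, the enzyme after hexokinase, higher (log2 difference 1.15, SE 0.16) and Ldha, lactate dehydrogenase, lower (-1.31, SE 0.22). Among interferon-stimulated genes 2 of 19 were higher and 2 lower (10.5% each, below the shares of all genes), the latter Ifit2 (log2 difference -1.54, SE 0.23) and Usp18 (-2.64, SE 0.45).

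Sterol synthesis genes differed between the 2 batch 2 libraries. Of 18 genes 1 was called, Stard4, which was lower (19.5 to 24.9 CPM, then 12.7 and 7.81 CPM). That is 5.56%, against 22.3% of all genes tested. The median batch difference was 0.43 within WKY and -1.53 within SHR. Fdps, which makes farnesyl pyrophosphate, had 264, 279, 286 and 308 CPM in batch 1, 501 CPM in WKY replicate 3 and 112 CPM in SHR replicate 3. Of the 18 genes 16 had an unadjusted p below 0.05 for the interaction, all with the more positive batch difference in WKY, and 14 were called by DESeq2 and 0 by edgeR after adjustment. In Fdps, as in Flna, WKY replicate 3 was the highest library and SHR replicate 3 the lowest.

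The largest decreases among genes that averaged 5 CPM or more were those of Pomp, Gsta5, Gjb2, Ccl7, Capns1, Dio2, Orc1 and Erfe, of which Pomp, Capns1 and Orc1 had counts that were not whole. Gjb2, the gap junction gene of connexin 26, had 117, 239, 49.5 and 64.0 CPM in batch 1 and 0.31 and 0.46 CPM in batch 2 (log2 difference -7.97, SE 0.72, adjusted p = 0.002). Erfe, the hormone erythroferrone, had 34.4 to 166 CPM and then 1.11 and 1.95 CPM (-5.39, SE 0.86). Both genes stood near 0 in batch 2. Ccl7, a monocyte chemokine, had 343 CPM in WKY replicate 1, 13.2 to 39.6 CPM in the other batch 1 libraries and 1.422 and 0.77 CPM in batch 2, and was not called without WKY replicate 3, SHR replicate 2 or SHR replicate 3 (adjusted p = 0.174, 0.0758 and 0.0973). Gsta5 and Dio2 were not called without either batch 2 library (adjusted p = 0.125 and 0.0631, and 0.0744 and 0.0804, without WKY and SHR replicate 3 in turn).

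Among the largest increases were those of Rps6, Myh9l1, Brms1, Ebna1bp2, Mfap4, Cpne1 and Gucy1a1. Mfap4, a protein of elastic fibers, had 1.97 to 6.90 CPM in batch 1 and 473 and 281 CPM in batch 2 (log2 difference 6.79, SE 0.56). The first 4 of the list, and Mfap4 and Cpne1, have counts that were not whole. Rps6, a protein of the small ribosomal subunit that every cell needs, was at 0 in all 4 batch 1 libraries and at 653 and 1073 CPM in batch 2. Myh9l1 was at 0 in batch 1 and at 1218 and 213 CPM in batch 2, and added to Myh9, the gene it is named after, the sum was 862, 794, 701 and 644 CPM in batch 1 and 2573 and 661 CPM in batch 2. The labels state neither how reads were divided between similar genes nor whether both batches were counted with the same gene models. The zeros of Rps6, Myh9l1, Brms1, Ebna1bp2, Pomp and Hells may therefore come from the counting, and no fold is given for them. Cpne1 lost its call in every fit that left out 1 library other than WKY replicate 1 or 2 (adjusted p = 0.0985 to 0.219).

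Genes seen in 1 batch only, chosen after their values were seen as those with at most 3 counts in every library of one batch and at least 50 in every library of the other, numbered 6 in batch 2 and 8 in batch 1. Of these, 4 and 5 had counts that were not whole. Besides the genes named above they included Pomp, a proteasome assembly factor (10.6 to 32.5 CPM in batch 1, 0 in batch 2), and Hells, a chromatin remodeller of dividing cells (2.69 to 8.70 CPM in batch 1, 0 in batch 2). Counts that were not whole were found in 1705 of the genes tested (13.1%) and in 653 of the called genes (11.7%), among them 11 cell cycle members and 1 contractile apparatus member (Smtn).

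The share of the most abundant genes and the number of genes seen were compared between the batches. The 10 most abundant genes took 8.71% and 8.88% of counts in batch 2 and at most 6.43% in batch 1. Between 14387 and 14997 genes were above 0 per library, and the lowest and highest of these were the 2 batch 2 libraries. Of 6 tested replication-dependent histone genes 2 were higher in batch 2 (33.3%, against 20.5% of all genes tested). They were Hist1h1c (32.3 to 119.8 CPM, then 269 and 454 CPM) and Hist1h2bh. Both histone calls were lost without either batch 2 library (adjusted p = 0.0569 to 0.215). The part of the most abundant genes or of the number of genes seen in the batch difference was not tested.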

How the data were processed

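Total RNA of 6 cultures was sequenced as paired-end reads of 100 bp on a DNBSEQ instrument, per the labels' protocols. The authors deposited estimated counts per gene, not normalized, and their processing notes name Bowtie2 2.4.4, RSEM 1.2.28, DESeq2 1.42.1 and Rnor_6.0 with no roles. A decimal part of over 0.001 was present in 8.96% of the values. Whether counting used strand: not given in the sources used here. A second table the authors deposited, of log2 values in which the batch means are equal, was not used here.

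Estimated counts were rounded. Of 16770 genes 16204 had a count and 13029 passed filterByExpr by batch. Batch 2 was compared with batch 1 by the edgeR 4.0.16 quasi-likelihood F-test (robust, TMM, strain as a term, 3 residual degrees of freedom, R 4.3.3), two-sided, with Benjamini-Hochberg adjustment over all genes tested and calls below 0.05. Log2 differences are batch 2 minus batch 1, and the SE comes from the difference and the F statistic. The interaction fit had 2 residual degrees of freedom. Alternatives were DESeq2 1.42.0, other scaling factors and filters, no strain term, fits within 1 strain and fits without 1 library. A fit on genes with whole counts in all libraries was added after seeing the data. Code was tested on simulated data.

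The members and the 30 lists were chosen with earlier results of these data known. They held 504 genes, of which 464 were matched, and mitochondrially encoded genes were not matched. Named were the markers, the 8 called genes per direction with the largest log2 difference among those averaging 5 CPM or more whose batches did not overlap (without locus names), and the 4 or 2 members per list with the smallest adjusted p. Results for 2 genes that this rule names are not reported here. Other members named were chosen after their values were seen.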

Additional observations from a re-analysis of the deposited data

Results flagged for a closer look

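In batch 1, the group of 4 libraries, the highest library stood far from the other 3 in 11 of 134 levels examined (8.21%). Chance gives about 1 in 20 only for independent levels with a normal spread. These levels mix 2 strains and share genes, so the share cannot be read as an excess over chance. WKY replicate 2 was apart in Myh11 (6.42 CPM, others at most 3.02), Gsta5 (37.0 CPM, others at most 6.87), Prkg1 (4.03 CPM, others at most 2.63) and Cpne1 (2.86 CPM, others at 0). WKY replicate 1 was apart in Ccl7 (343 CPM, others at most 39.6) and Erfe (166 CPM, others at most 55.6). SHR replicate 1 was apart in Dio2 (29.8 CPM, others at most 5.67).

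SHR replicate 2 was apart in Gins1 (19.6 CPM, others at most 14.9), Lrrn4 (5.73 CPM, others at most 0.30), the summed DNA replication genes (2087 CPM, others at most 1480 CPM) and the sum of all cell cycle lists (11882 CPM, others at most 9706 CPM). With SHR replicate 2 left out, 120 cell cycle members were still lower in batch 2. The batch 2 group, with 2 libraries, cannot be examined in this way.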

How the results depend on the processing

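With all 6 libraries and another scaling, filter or tool or no strain term, 2391 to 3340 genes were higher and 2707 to 3223 lower, and scaling moved the median of all genes by at most 0.04. At least 2-fold, 1705 were higher and 1777 lower. Without 1 library 1731 to 2346 genes were higher. Contractile apparatus members lower in batch 2 numbered 1 within WKY (Des) and 1 within SHR (Myl6), and 0 to 1 without 1 library (Des without SHR replicate 3, Myl6 without WKY replicate 3). Genes with an interaction numbered 452 by DESeq2, 4 with no filter, and 0 to 248 without 1 batch 1 library (192 without WKY replicate 1, 248 without WKY replicate 2). Cell cycle members lower numbered 110 to 121 and contractile members higher 8 to 13 under all alternatives run. Of 105 named genes 1 reversed, the lysosomal gene Cd68, from -0.28 to 1.00 without WKY replicate 3 and to 1.01 within SHR, with -2.32 without SHR replicate 3. The causes were not tested. No paired analysis was possible because replicate number 3 is batch 2 in both strains. Depth of 3 counts per library limits genes below about 0.19 CPM.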
